A study of Mus musculus with 16 samples.

Results

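The 10 genes followed here belong to the G1 phase of the cell cycle, measured in mouse liver: the D-type cyclin genes Ccnd1, Ccnd2 and Ccnd3, the kinase genes Cdk4 and Cdk6, and the inhibitor genes Cdkn1a, Cdkn1b, Cdkn1c, Cdkn2b and Cdkn2c. They were taken as a named list, and 9 of the 10 had an array row annotated to that gene alone, among 19938 genes with such a row. Cdkn1a, which encodes p21, had only a row annotated to 2 genes, so no value is given for it. Expression was measured on 16 Affymetrix Mouse Gene 1.0 ST arrays, 1 per sample, which carry probes along each transcript. The samples were 7 from Pdgf-c transgenic mice and 9 from wildtype mice, both on the C57BL/6 background, and the series asked whether liver stromal cells take part in tumour formation. PDGF-C is a growth factor for fibroblasts and hepatic stellate cells. The promoter of the transgene, the age and sex of the mice, any pooling and whether each sample came from a separate animal are not given in the sources used here, so the p-values speak only of the variation among these arrays, which may be technical.

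D-type cyclins are made in response to growth factors and bind CDK4 or CDK6, and the active kinases phosphorylate the retinoblastoma protein, which releases E2F factors and lets cells enter S phase. INK4 inhibitors such as p15 (Cdkn2b) and p18 (Cdkn2c) bind the kinases and keep cyclins away from them, whereas Cip/Kip inhibitors such as p27 (Cdkn1b) and p57 (Cdkn1c) bind whole cyclin and kinase complexes and mainly block those of CDK2. Adult hepatocytes are normally quiescent, and Ccnd1 is the D-type cyclin best known for its rise when they re-enter the cycle after partial hepatectomy.

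All values are log2 intensities. The column medians of the 35557 rows lay between 5.20 and 5.36, and the rows of all 9 genes averaged above the median of the table, 5.26. The labels name stromal cells as the cell type, but the protocol describes total hepatic RNA, and Alb, the albumin gene of hepatocytes, averaged 13.5 ± 0.0366 in transgenic and 13.6 ± 0.0777 in wildtype samples (SD, n = 7 and 9). The samples were therefore read as whole liver. Pdgfc itself rose by 0.44 ± 0.0873 on the log2 scale (SE, limma adjusted p = 0.00132), or 1.36-fold. The groups overlapped, with the lowest transgenic sample at 6.13 and the highest wildtype sample at 6.19. Whether this row detects the transgene was not tested. In whole tissue, a change in the number of cells of a type and a change in RNA per cell cannot be told apart.

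Of the 9 genes, 6 rose in the transgenic livers and none fell. Ccnd2 rose 2.0-fold, Ccnd1 1.41-fold, Cdk6 1.37-fold, Cdkn1b 1.33-fold, Cdkn2c 1.22-fold and Cdk4 1.21-fold, while Ccnd3, Cdkn1c and Cdkn2b did not pass the test (limma, Benjamini-Hochberg over all rows, threshold 0.05). These 6 of 9 compare with 12.1% of all genes higher and 11.1% lower at the same threshold. All 9 genes lay above the median level, where calls were more frequent. In a fit of only the 17703 rows above that level, 3307 rose and 2960 fell. Centring the arrays left 5 of the 9 higher and turned the balance of all rows towards falls. The genes were listed with earlier results of these data in view, and 1 of the 6, Ccnd2, changed by at least 1.5-fold. The median difference was 0.29 over the 9 genes and -0.04 over all 19938 genes. In 2 genes, Ccnd2 and Cdk4, the transgenic and wildtype samples did not overlap, as in 5.43% of all genes in that direction.

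**Figure D1:**
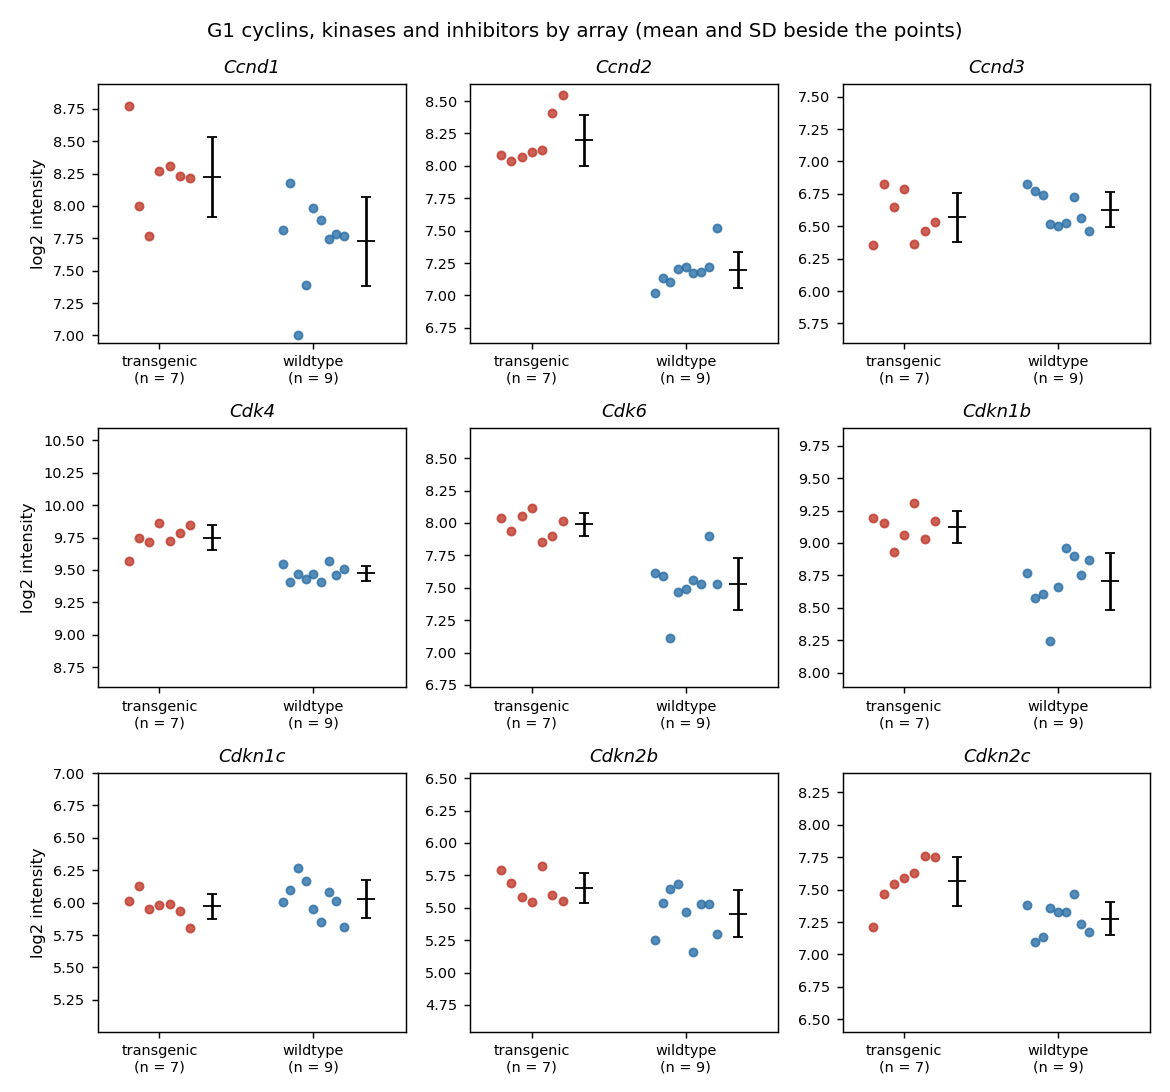
Log2 intensity of the 9 measured genes, with 1 point per array, 7 transgenic arrays to the left of 9 wildtype arrays in each panel, and the mean with its SD beside the points. Every panel spans 2 log2 units around its own mean. The points of Ccnd2 and Cdk4 do not overlap between the groups, whereas those of Ccnd3 and Cdkn1c share most of their range.

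**Figure D2:**
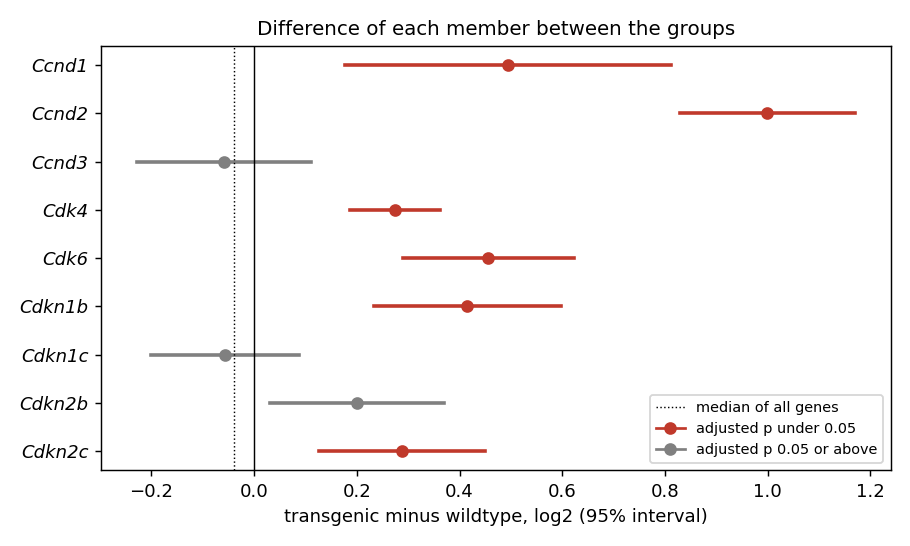
Difference of each gene on the log2 scale, transgenic minus wildtype, with its 95% interval from the limma fit. The solid line marks 0 and the dotted line the median of all genes, -0.04. Ccnd2 stands at 1.00, and the intervals of Ccnd3 and Cdkn1c span 0.

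Of the cyclins, Ccnd2, which encodes cyclin D2, moved the most. Its lowest, median and highest values were 8.04, 8.11 and 8.54 in transgenic livers, against 7.02, 7.18 and 7.52 in wildtype livers. All 7 transgenic samples exceeded all 9 wildtype samples, and a gap of about the size of either group's range separated the lowest transgenic from the highest wildtype sample. The log2 difference was 1.00 ± 0.0806 (SE, 95% interval 0.83 to 1.17, limma adjusted p = 5.79e-08), and 1.55% of all genes had a larger rise. Within the transgenic group 5 samples lay close together between 8.04 and 8.13, and arrays 6 and 7 stood above them at 8.41 and 8.54.

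Ccnd1, which encodes cyclin D1, rose less and varied more. It measured 7.77, 8.23 and 8.77 (lowest, median and highest) in transgenic livers, against 7.002, 7.78 and 8.17 in wildtype livers. The groups overlapped: 5 of 7 transgenic samples exceeded all wildtype samples, and 4 of 9 wildtype samples lay below all transgenic ones. The difference was 0.50 ± 0.151 (SE, interval 0.18 to 0.81, limma adjusted p = 0.0269). Transgenic array 1 held the highest value and wildtype array 3 the lowest. The call was lost without transgenic array 1 (0.40, adjusted p = 0.0589) or wildtype array 4 (0.45, adjusted p = 0.0504), and without transgenic array 1 and wildtype array 9 together, the arrays at the ends of a principal component (0.41, adjusted p = 0.0685).

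Ccnd3, the gene of cyclin D3, did not pass the test. Its transgenic values ran from 6.36 to 6.83 around a median of 6.53, against 6.46 to 6.82 around 6.56 in wildtype livers. The difference was -0.06 ± 0.0805 (limma adjusted p = 0.686), and its interval of -0.23 to 0.11 corresponds to a transgenic level between 0.854 and 1.08 times that of wildtype. Transgenic samples held both the highest and the lowest value of all.

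The D-type cyclins were then set against each other within each array, which cancels the scaling of the array. The interval between the rows of Ccnd2 and Ccnd3 widened by 1.06 ± 0.146 (SE) on the log2 scale in transgenic livers relative to wildtype, and every transgenic sample exceeded every wildtype sample (exact permutation test over 11440 splits, two-sided, p = 8.74e-05, the smallest it can give; adjusted p = 0.000524 over the 6 pairs compared). Ccnd2 also rose more than Ccnd1, by 0.50 ± 0.18 (exact permutation adjusted p = 0.025), and Ccnd1 more than Ccnd3, by 0.55 ± 0.211 (exact permutation adjusted p = 0.025). In the steps from Ccnd3 to Ccnd1 and from Ccnd1 to Ccnd2 the groups overlapped. The step from Ccnd1 to Ccnd2 lost its call without transgenic array 3 (0.45, exact adjusted p = 0.0521) or 7 (0.44, exact adjusted p = 0.0527). The step from Ccnd3 to Ccnd1 lost it without transgenic array 1 (0.43, exact adjusted p = 0.0551) and without transgenic array 1 and wildtype array 9 (0.45, exact adjusted p = 0.0569).

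**Figure D3:**
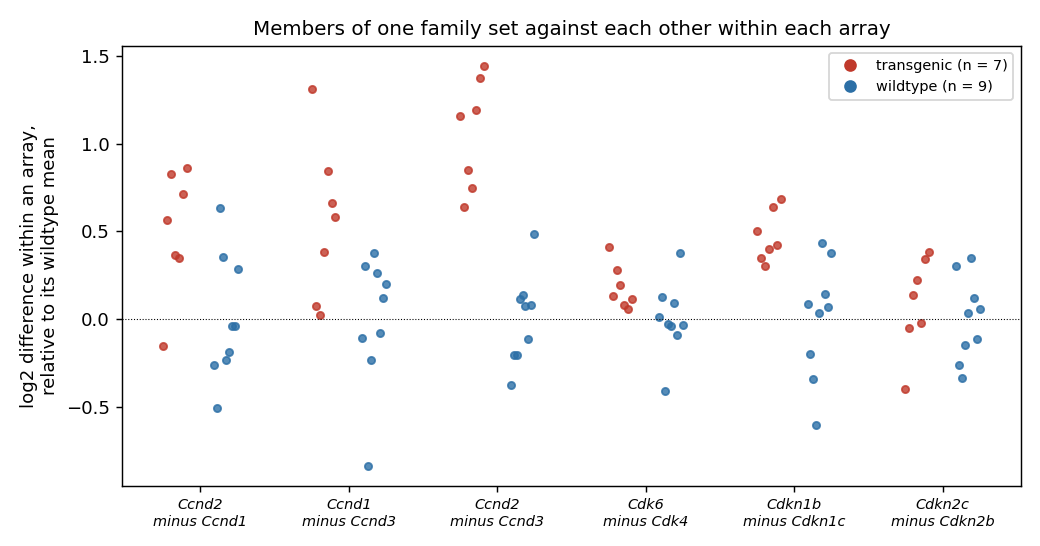
Log2 difference between the rows of 2 genes of one family within each array, shifted so that the wildtype mean of each pair is 0, with 7 transgenic points to the left of 9 wildtype points. The transgenic points of Ccnd2 minus Ccnd3 all lie above the wildtype points, and those of Cdkn2c minus Cdkn2b cover the same range as wildtype.

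Both kinase genes rose. The 300 bases around their annotated starts, 250 before and 50 after, are shown from RefSeq's GRCm38.p6 assembly. Such windows were at hand for 7 of the 10 listed genes, and not for Ccnd1, Ccnd2 or Cdkn1c. Capitals mark CACGTG, the E-box recognised by MYC and other basic helix-loop-helix factors, which reads the same on both strands.
Cdk4, chr10:127063285-127063584, plus strand: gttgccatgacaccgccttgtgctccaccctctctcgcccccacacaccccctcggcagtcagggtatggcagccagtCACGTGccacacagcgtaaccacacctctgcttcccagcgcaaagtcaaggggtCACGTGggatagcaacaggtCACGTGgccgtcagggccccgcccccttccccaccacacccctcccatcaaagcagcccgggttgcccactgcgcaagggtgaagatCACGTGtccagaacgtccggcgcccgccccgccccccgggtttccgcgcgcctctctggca
Cdk6, chr5:3343643-3343942, plus strand: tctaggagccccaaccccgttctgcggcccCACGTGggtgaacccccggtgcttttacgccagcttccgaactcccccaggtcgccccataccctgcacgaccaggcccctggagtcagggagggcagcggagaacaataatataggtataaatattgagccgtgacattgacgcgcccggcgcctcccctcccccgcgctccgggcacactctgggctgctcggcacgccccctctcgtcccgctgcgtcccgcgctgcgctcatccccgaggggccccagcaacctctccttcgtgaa
The Cdk4 window held 4 matches, beginning 172, 118, 98 and 11 bases before the start, and the Cdk6 window held 1, beginning 220 bases before it. At least 1 match was present in 7.15% of the 32851 windows of this length in the table, and at least 4 in 8 windows. The only other match in a window of the listed genes was in 1 of the 2 windows of Cdkn2c. A match describes the letters and does not show that a factor binds there. Any part of this motif in the rise of the kinase genes was not tested.

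Cdk4, the more tightly measured of the kinase genes, had transgenic values from 9.57 to 9.86 (median 9.75), against 9.41 to 9.57 (median 9.47) in wildtype livers. The groups did not overlap, although the lowest transgenic sample, array 1, only just exceeded the highest wildtype sample, array 7. The difference was 0.27 ± 0.0418 (SE, interval 0.19 to 0.36, limma adjusted p = 1.00e-04). Cdk6 ran from 7.86 to 8.11 (median 8.02) in transgenic livers, against 7.12 to 7.90 (median 7.53) in wildtype livers. Wildtype array 8, at 7.90, was the only wildtype sample inside the transgenic range. The difference of Cdk6 was 0.46 ± 0.0794 (SE, interval 0.29 to 0.62, limma adjusted p = 0.000379).

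Cdk6 rose by 0.18 ± 0.0839 more than Cdk4 within arrays, which did not pass the test (exact permutation adjusted p = 0.0695) but did without wildtype array 8 (0.23, exact adjusted p = 0.0087). The row of Myc, which encodes MYC, averaged 7.69 ± 0.625 in transgenic and 6.87 ± 0.691 in wildtype livers (SD, n = 7 and 9), and its difference of 0.82 ± 0.301 (SE) did not pass the test (limma adjusted p = 0.0667).

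Among the Cip/Kip inhibitors, Cdkn1b rose by its brighter row. That row ran from 8.93 to 9.31 (median 9.16) in transgenic livers, against 8.24 to 8.96 (median 8.76) in wildtype livers, and 6 of 7 transgenic samples exceeded all wildtype samples. The difference was 0.42 ± 0.0866 (SE, interval 0.23 to 0.60, limma adjusted p = 0.00195). The second, dimmer Cdkn1b row gave 0.12 ± 0.0607 and did not pass the test (adjusted p = 0.181), with transgenic values of 6.99 to 7.16 inside the wildtype range of 6.76 to 7.20. Averaged over both rows the difference was 0.27 (adjusted p = 0.00402). The rise of Cdkn1b, in size and in call, therefore depended on the row.

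Cdkn1c, an imprinted gene that is expressed from the maternal allele, did not pass the test. It ran from 5.81 to 6.13 (median 5.98) in transgenic livers, against 5.81 to 6.27 (median 6.01) in wildtype livers. The difference was -0.06 ± 0.0683 (limma adjusted p = 0.642), with an interval of -0.20 to 0.09, and 6 of 7 transgenic samples lay below the wildtype mean. By its brighter row Cdkn1b rose more than Cdkn1c within arrays, by 0.47 ± 0.124 (exact permutation adjusted p = 0.00997). With the mean over both Cdkn1b rows this was 0.33 (exact permutation adjusted p = 0.025), and the dimmer row alone was not compared with Cdkn1c.

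Of the INK4 inhibitors, Cdkn2c rose and Cdkn2b did not pass the test. Cdkn2c ran from 7.22 to 7.76 (median 7.59) in transgenic livers, against 7.09 to 7.47 (median 7.33) in wildtype livers. In 5 of 7 transgenic samples it exceeded all wildtype samples, and transgenic array 1 lay below the wildtype mean. The difference was 0.29 ± 0.0765 (SE, interval 0.13 to 0.45, limma adjusted p = 0.0116), and it lost its call with each array centred on its median (0.24, adjusted p = 0.0565).

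Cdkn2b, a gene induced by TGF-beta in many cell types, ran from 5.55 to 5.82 (median 5.59) in transgenic livers, against 5.16 to 5.68 (median 5.53) in wildtype livers. All 7 transgenic samples lay above the wildtype mean and 3 above all wildtype samples. The difference of 0.20 ± 0.0802 had an unadjusted p of 0.0228 and an adjusted p of 0.0961 in limma. Within arrays the changes of Cdkn2c and Cdkn2b differed by 0.09 ± 0.129 (exact permutation adjusted p = 0.494), so a call in one and not in the other does not set them apart. The remaining INK4 genes were Cdkn2a at 0.13 ± 0.0737 and Cdkn2d at 0.12 ± 0.0972, and neither passed the test (limma adjusted p = 0.259 and 0.474).

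The samples did not order the genes in one way. Transgenic array 1 had the highest Ccnd1 of its group but the lowest Ccnd3, Cdk4 and Cdkn2c. Transgenic array 7 lay above its group mean in 5 of the 6 genes that rose, and wildtype array 3 in 0 of them. Ccnd1 was the most variable row for its level: its SD of 0.306 in transgenic livers exceeded that of 95% of the 500 rows nearest in mean, and its SD of 0.344 in wildtype livers that of 98.8%. Cdk4, in contrast, had SDs of 0.098 and 0.0565, which exceeded those of 27.0% and 9.6% of its 500 nearest rows.

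Partners of these genes at the G1/S boundary were examined next. Of 26 listed G1/S genes 1 rose and 2 fell, with a median difference of -0.02, where 12.1% of all genes were higher and 11.1% lower. The largest difference in the list was that of Myc, given above, which did not pass the test. Rbl1, which encodes the retinoblastoma relative p107 and is itself an E2F target, rose 1.43-fold (0.52 ± 0.0858, limma adjusted p = 0.000229) with no overlap between groups. Those that fell were the partners of the next step in the cycle, Cdk2 (-0.32 ± 0.0936, adjusted p = 0.0224) and the cyclin E gene Ccne1 (-0.25 ± 0.0791, adjusted p = 0.0324). Ccne1 lost its call without transgenic array 1 and wildtype array 9, and quantile normalization raised the number that fell to 5 by adding E2f2, Cdc25a and Ccnh. Rb1 differed by 0.03 ± 0.107 and E2f1 by -0.05 ± 0.0618, and neither passed the test (limma adjusted p = 0.871 and 0.677).

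Among 19 measured genes of S phase 6 rose, 13 did not pass the test and none fell, with a median difference of 0.11. They included genes of the replicative helicase: Mcm6 rose 1.84-fold (0.88 ± 0.0864), and Mcm5, Mcm4 and Mcm3 rose by 0.42, 0.42 and 0.40 on the log2 scale (limma adjusted p at most 0.00135 in these 4 genes). Centring of the arrays left 5 that rose and added a fall of Tk1. Among 15 measured G2/M genes 9 rose and none fell, with a median of 0.33. The largest difference was that of Top2a (1.02 ± 0.144, limma adjusted p = 4.41e-05), a dim row that averaged 4.81 in transgenic and 3.79 in wildtype livers. The only called genes above the median level were Cdk1 (0.48 ± 0.104), the survivin gene Birc5 (0.37 ± 0.0799) and the anaphase activator gene Cdc20 (0.31 ± 0.0717). The limma adjusted p of these 3 was at most 0.00454. Of the 15 G2/M genes, 3 averaged below the 20th percentile of the table, 3.45, where values are near the floor. Bub1 and Cenpe, both called higher, were among them, and the call of Cenpe was lost with centred arrays. The shares of the S-phase and G2/M lists stand beside 12.1% of all genes higher, and no test set the lists against other genes.

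Targets of p53, the factor that induces Cdkn1a after DNA damage, were called in both directions. Of 17 measured targets 4 rose (23.5%, against 12.1% of all genes) and 2 fell (11.8%, against 11.1% of all genes), with a median of 0.04 as deposited, which was -0.03 after quantile normalization and -0.01 with centred arrays. Phlda3, a repressor of AKT, rose 2.43-fold (1.28 ± 0.0686) and the antiproliferative gene Btg2 1.82-fold (0.86 ± 0.102). The junction gene Perp was 1.41-fold lower (-0.50 ± 0.0525) and Ei24 1.21-fold lower (-0.28 ± 0.0541). Mdm2, the p53 antagonist, differed by -0.04 ± 0.0803 (limma adjusted p = 0.80). Centring of the arrays removed the calls of Ccng1 and Eda2r, so that 2 rose and 2 fell.

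**Figure D4:**
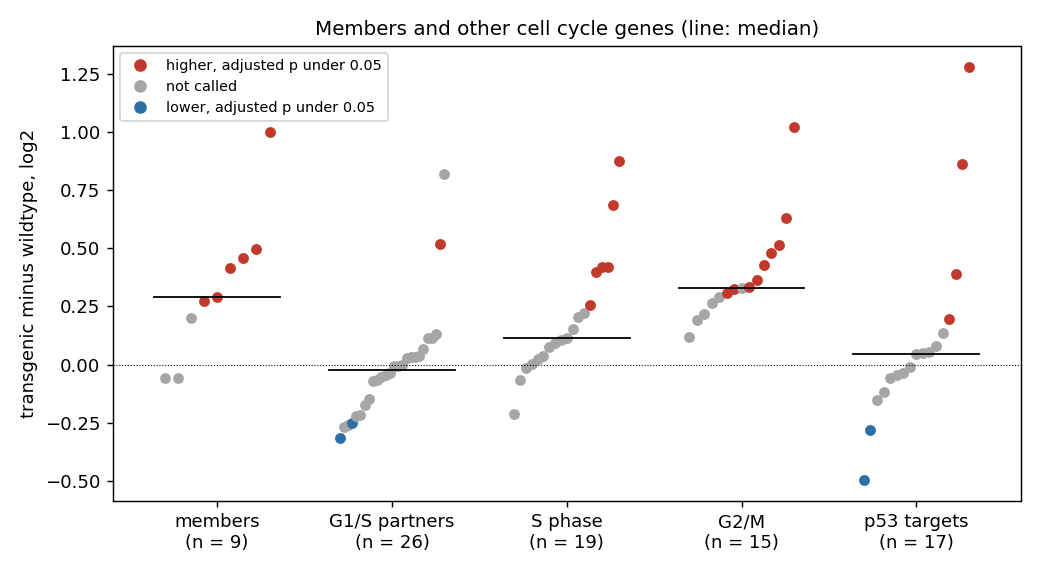
Log2 difference, transgenic minus wildtype, of the 9 measured genes and of the listed G1/S, S-phase, G2/M and p53 target genes, with 1 point per gene and a line at each median. Red points passed the test upwards and blue points downwards. The G1/S genes centre near 0 with a median of -0.02, below the medians of the 9 genes (0.29) and the G2/M genes (0.33).

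Markers of other liver cell types moved between the same samples. All 12 stellate cell and fibroblast markers rose, among them Pdgfra (3.17 ± 0.102) and Vim (2.12 ± 0.0951), and the log2 of their summed intensity was 12.7 to 13.0 in transgenic livers, against 10.6 to 11.4 in wildtype livers. Of 8 measured leukocyte markers other than macrophage genes 6 rose and none fell, including the pan-leukocyte gene Ptprc (0.97 ± 0.0905), and their summed level was 9.01 to 9.89 against 7.84 to 8.15. Of 9 macrophage markers 4 rose and 4 fell, with summed levels of 9.79 to 10.3 against 10.2 to 11.03. Of 8 endothelial markers 2 rose and 3 fell, with 10.3 to 10.6 against 10.8 to 11.2. These sums weigh bright genes most. The brightest wildtype gene of each list fell, Clec4f from 9.17 to 6.47 and Clec4g from 9.83 to 7.56. Csf1r, Cd68, Ccr2 and Cx3cr1 rose among the macrophage markers, and Pecam1 and Eng among the endothelial ones. The lower sums therefore do not describe either list as a whole. None of the 4 measured cholangiocyte markers passed the test, and their summed level was 7.12 to 7.43 in transgenic against 7.20 to 7.33 in wildtype livers. Of 11 measured hepatocyte markers 1 rose and 3 fell, with 16.5 to 16.6 in either group. The marker that rose, Apoa1, lost its call with centred arrays and without transgenic array 1 and wildtype array 9. Centring left 0 hepatocyte markers higher and 4 lower, and quantile normalization removed the call of Hnf4a and added Pck1. The counts in all these lists stand beside 12.1% of all genes higher and 11.1% lower. No marker in these lists had a mean below the 20th percentile of the table, 3.45. The part of any of these cell types in the rise of the 6 genes was not tested.

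The genes with the most similar profiles were sought among 11505 others above the median level, as the root mean square distance over the 16 arrays after each profile was shifted to a mean of 0. Nearest to Ccnd2 were Plek, a gene of leukocytes and platelets, at 0.12 log2 units, the non-muscle myosin gene Myh10 at 0.127 and the TGF-beta co-receptor gene Eng at 0.128, where the median gene was 0.549 away. Nearest to Cdk6 were Vamp5, Prkcb and Slc6a8 at 0.108 to 0.116, against a median of 0.321, and nearest to Cdk4 were Rbm39, Traf7 and Srsf1 at 0.0575 to 0.0664, against 0.222. Cdkn2c lay closest to Gsdmd, Stard3nl and Nmi (0.0776 to 0.0954, median 0.257) and Cdkn1b to Prcp, Pcm1 and Mindy2 (0.128 to 0.141, median 0.317). Ccnd1 had no neighbour as near: Rnf213, Cpt1c and the E-cadherin gene Cdh1 stood 0.231 to 0.243 away, against a median of 0.434. The distance includes the shared difference between the groups, so it mostly finds genes of similar change and spread.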

How the data were processed

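Each of 16 liver RNA samples was measured on 1 Affymetrix Mouse Gene 1.0 ST array, and sample titles gave the groups. The log2 intensities are those the authors deposited. They come from GCRMA, per the submitters' processing notes, a method with a sequence-based background model, normalization across arrays and 1 summary value per row, in which dim rows are drawn to a floor. Its version and the log base are not given in the sources used here, and base 2 was read from the range of 0.71 to 14.7. Scanner files and batches were not analysed here, and 0 columns belonged to no sample. The number of arrays limits the precision.

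Of 35557 rows, 23410 were listed with a gene, 21789 with 1 symbol and 1621 with several. A gene was represented by its brightest single-symbol row (19938 genes), and 0 symbols changed against GRCm38.p6. The comparison used limma 3.58.1 under R 4.3.3 (two-sided, trended eBayes, 14 residual degrees of freedom), with p-values adjusted over all rows by Benjamini-Hochberg, no filter and a threshold of 0.05. Differences are transgenic minus wildtype. On simulated data of 35557 rows 28% of 1.25-fold changes were called, as were 80% of 1.5-fold, 90% of 2-fold and 100% of 4-fold changes. The simulation changed far fewer rows than were called in these data, so its adjusted threshold was stricter. These rates therefore do not carry over to the real fit. Pairs within a family were compared by exact permutation over arrays. Of 8 such pairs planned, 6 had rows for both genes.

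The genes and lists were chosen with earlier results of these data known. Named genes were all members, up to 4 called genes per list by size where either group averaged above the table's median, a single gene called against its list, and the 3 nearest profiles of each called member, and others were named after their values were seen. Alternatives covered scaling, filters, the variance model, array weights, a floor, the mean over rows, leaving out arrays, and a block on replicate number. Python 3.11.15 and matplotlib 3.10.9 made the figures.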

Additional observations from a re-analysis of the deposited data

Results flagged for a closer look

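In 168 groups of arrays (84 rows in each of the 2 groups), 4 held an array far from the rest, where chance gives about 1 in 20. All 4 were wildtype arrays, and 1 concerned a G1 gene. Wildtype array 9 had the highest wildtype Ccnd2, at 7.52 where the next wildtype array stood at 7.22, and it remained below the lowest transgenic value. The same array had the highest wildtype Alb, at 13.7. Wildtype array 2 had the highest wildtype value of the clock gene Arntl, at 5.91, and wildtype array 8 the lowest wildtype value of the lymphocyte gene Nkg7, at 4.73.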

How the results depend on the processing

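The count of genes that rose was 5 or 6 and the count that fell 0 under all 28 alternatives, 5 to 6 and 0 when each array was left out in turn. Ccnd2 (0.94 to 1.06), Cdk4 (0.22 to 0.31), Cdk6 (0.40 to 0.51) and Cdkn1b (0.27 to 0.45) kept direction and call in all 28, and Ccnd3, Cdkn1c and Cdkn2b remained without a call in all 28, Cdkn2b with adjusted p-values of 0.0563 to 0.256. Ccnd1 lost its call in 3 (0.40 to 0.57 overall) and Cdkn2c in 1, with the values given above, and the cause was not tested. Of the 6 pairs within families, 4 passed the test as reported and 3 to 5 under the 22 alternatives run on them. Among these, centring, the filter on level and the floor could not change a difference within an array of these genes. They therefore add nothing on the stability of the pairs. The mean over rows changed the values of the Cdkn1b pair only. The rule on rows was the only choice that moved a called difference by over 1.5 times, that of Cdkn1b. None of the 28 used the dimmer Cdkn1b row alone, which gave 0.12 ± 0.0607 and no call (limma adjusted p = 0.181). Over all rows, 3785 rose and 2936 fell as deposited, 3583 and 3829 after quantile normalization, and 2873 and 4688 with centred arrays, where the median row shifted to -0.08 from -0.03. With the replicate number as a block, over arrays 1 to 7 of both groups, 6 genes rose and 0 fell, and no call changed. The correlation of deviations of same-numbered arrays was -0.02 to 0.09, and 0 of the 7 transgenic arrays correlated best with the wildtype array of its own number. The labels state no pairing, and this check cannot show that the arrays were unpaired. The block took the count over all rows to 3488 higher and 2234 lower, against 3776 and 2696 in the same arrays without it.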

Other observations

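Genes of the circadian clock, whose RNA levels follow the time of day, were also measured. Of 14 measured genes 3 fell and 1 rose, with a median difference of -0.08, where 11.1% of all genes were lower and 12.1% higher. The count was 4 lower and 0 higher after quantile normalization, which added Cry2, and 5 lower and 0 higher with centred arrays, which added Cry1 and Cry2. Ciart, a repressor in the clock loop, was 1.61-fold lower (-0.68 ± 0.0939, limma adjusted p = 3.49e-05), with no overlap between the groups. Arntl, the gene of the activator BMAL1, was 1.19-fold lower (-0.25 ± 0.0764, limma adjusted p = 0.0285). The Arntl groups only just missed overlap, at 5.33 in the highest transgenic and 5.34 in the lowest wildtype sample. Its wildtype mean included the far value of wildtype array 2, 5.91. The share of all genes lower without overlap was not computed. Hlf was lower by a smaller step (-0.16 ± 0.0552, adjusted p = 0.046) and Per3 was higher (0.31 ± 0.101, adjusted p = 0.0385). Per3 lost its call after quantile normalization and with centred arrays, and Hlf lost it without transgenic array 1 and wildtype array 9. The hour of collection is not given in the sources used here, and its part in the G1 genes was not tested.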
